A study of Mus musculus with 8 samples.

Results

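Transcripts of 7 caspase genes and of the gasdermin D gene were followed in mouse embryonic fibroblasts (MEFs), stromal cells cultured out of embryos, after exposure to interferon-beta (IFN-beta), the antiviral cytokine read by the type I interferon receptor. The members were the rows of the deposited count tables with the symbols Casp1, Casp4, Casp12, Gsdmd, Casp8, Casp9, Casp2 and Casp6, and all 8 were found among 24015 gene symbols. The symbols were chosen by name, to cover inflammatory, initiator and executioner caspases together with gasdermin D, with earlier results of these data known. Of the 8 genes, 7 had enough counts to be tested, and Casp1 did not.

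The IFN-beta group held 2 RNA-seq libraries of cells kept for 6 h with recombinant mouse IFN-beta at 100 units/mL. The untreated group held 2 libraries of cells left without the cytokine. Both groups were wild type cells on a C57bl/6 background, derived at E12.5 and used at passages 15 to 18. The labels number the replicates and do not state whether the cultures were separate, so a p-value here speaks only of the spread among 4 libraries, part or all of which may be technical. The series, built around a mouse with epitope-tagged histone H3.3, also lists chromatin samples, which were not analysed here.

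Caspases are proteases that cut their substrates after aspartate and are made as inactive precursors. Inflammatory caspases are switched on by inflammasomes, assemblies that form around sensors of microbial products, and they cleave gasdermin D, whose released part forms pores in the plasma membrane and kills the cell by pyroptosis. Initiator caspases are activated on platforms downstream of death receptors, mitochondria or nuclear stress, and executioner caspases then dismantle the cell in apoptosis. Fibroblasts are not professional inflammatory cells, but interferon is known to prepare many cell types for the detection of intracellular bacteria.

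The IFN-beta libraries held 18901845 and 20714161 counts in genes, and the untreated libraries 18528685 and 24817342. Values below are counts per 1000000 (CPM), scaled to each library's size after the trimmed-mean (TMM) correction, and fold changes are given on the log2 scale as IFN-beta over untreated. The genes Rn45s, Lars2 and Mir6236 together took 14.5% and 13.02% of the counts in the IFN-beta libraries and 5.94% and 7.52% in the untreated ones. The treatment itself was visible in 8 of 8 genes listed as a check of the interferon response, with earlier results of these data known. Among them, Ifit1, which encodes an antiviral RNA-binding protein, was at 1852 ± 179 CPM after IFN-beta and 1.19 ± 0.0777 CPM in untreated cells (SD, n = 2 each). On their untreated counts alone, Isg15, Usp18 and Oasl2 of this list would not have passed the count filter, so the list leans towards genes high after treatment. Across all 12128 tested genes, 574 were called higher (4.73%) and 60 lower (0.495%) by edgeR's quasi-likelihood test at a Benjamini-Hochberg adjusted p below 0.05. With total library size in place of TMM the calls were split into 478 higher and 350 lower genes, and with upper quartile scaling into 520 and 128. Over all tested genes the median log2 fold change was -0.02 with TMM and -0.16 when libraries were scaled by their totals.

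Of the members, 3 stand side by side on chromosome 9 in the RefSeq annotation, in the order Casp1, Casp4, Casp12, with no other annotated gene between them. The others lie on chromosomes 1 (Casp8), 3 (Casp6), 4 (Casp9), 6 (Casp2) and 15 (Gsdmd). The starts of these 3 neighbours are shown because Casp4 had the largest fold change among the tested members. They come from RefSeq (build GRCm38.p6, plus strand), whereas the counts were made on mm9, and they run from 250 bases before the annotated start to the first 30 bases of the transcript. Capitals mark matches to 4 motifs searched on both strands of the 300-base windows: the core of the interferon-stimulated response element (GAAA, any 2 bases, GAAA), the interferon regulatory factor half-site AANNGAAA, the STAT motif TTCNNNGAA (GAS), and the NF-kB consensus.
Casp1, chr9:5298267-5298546: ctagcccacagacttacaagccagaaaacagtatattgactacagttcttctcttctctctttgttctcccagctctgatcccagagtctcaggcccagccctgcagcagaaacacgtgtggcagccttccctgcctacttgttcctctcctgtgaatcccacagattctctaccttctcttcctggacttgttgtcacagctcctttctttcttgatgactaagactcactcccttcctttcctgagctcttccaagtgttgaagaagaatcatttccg
Casp4, chr9:5308599-5308878: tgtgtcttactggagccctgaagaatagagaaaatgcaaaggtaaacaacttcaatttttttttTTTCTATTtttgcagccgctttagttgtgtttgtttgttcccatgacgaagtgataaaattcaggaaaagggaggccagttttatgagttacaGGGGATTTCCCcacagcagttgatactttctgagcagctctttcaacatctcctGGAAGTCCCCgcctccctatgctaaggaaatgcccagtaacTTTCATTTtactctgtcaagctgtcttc
Casp12, chr9:5345226-5345505: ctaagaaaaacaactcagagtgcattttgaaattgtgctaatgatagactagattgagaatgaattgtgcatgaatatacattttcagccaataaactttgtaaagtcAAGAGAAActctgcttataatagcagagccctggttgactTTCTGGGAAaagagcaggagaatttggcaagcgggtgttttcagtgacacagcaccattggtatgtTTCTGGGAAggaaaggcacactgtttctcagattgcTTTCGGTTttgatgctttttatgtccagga

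The Casp4 window, the first of 2 annotated for that gene, held overlapping NF-kB matches from -93 to -83 relative to the start and another from -39 to -30. It also held half-sites AANNGAAA from -186 to -179 and from 2 to 9, both on the minus strand. The Casp12 window held GAS matches from -102 to -94 and from -36 to -28, and half-sites from -142 to -135 and from 0 to 7. Among 32851 RefSeq windows of the same length, 8.46% held the NF-kB consensus, 8.30% the GAS motif and 23.9% the half-site. The 10-base core was in 3.44% of windows and in none of the windows of the 7 members that the table holds. Of the remaining members with a window only Casp8 had a match, with half-sites from -171 to -164 and from -108 to -101. No window was available for Gsdmd, so its promoter was not searched. A match is a description of the letters and not evidence of binding.

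Casp4 rose after IFN-beta. It is the mouse gene for the protease also called caspase-11, which binds bacterial lipopolysaccharide in the cytosol and cleaves gasdermin D. The Casp4 level was 32.2 and 43.7 CPM in the IFN-beta libraries and 12.3 and 9.82 CPM in the untreated libraries, from 575 and 868 counts against 236 and 259. Both treated libraries lay far above both untreated ones, and the treated pair was the more widely spaced. The log2 fold change was 1.79 ± 0.20 SE (95% interval 1.35 to 2.23, edgeR adjusted p = 0.000244). In bulk RNA, more cells with the transcript and more transcript per cell cannot be told apart. Casp4 was called under each of 14 alternatives, with log2 values from 1.55 to 1.99, and was at 1.80 with Rn45s, Lars2 and Mir6236 left out. Among the 14, the alternative with another prior count alters only the fold change and cannot change a call.

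Casp1, the protease that matures interleukin-1 beta and interleukin-18 inside inflammasomes, was close to the limit of detection. It had 11 and 5 counts in the IFN-beta libraries and 3 and 2 counts in the untreated libraries, which are 0.616 and 0.252 CPM against 0.156 and 0.0758 CPM. The treated libraries lay above the untreated ones, but the 95% counting interval of the lower treated library (0.0818 to 0.588 CPM) covered the 0.156 CPM of untreated replicate 1. The ratio of the pooled, depth-scaled counts was 3.87 (95% exact interval 1.36 to 13.5, covering counting error only). As log2 this ratio was 1.95. It was 1.20 without IFN-beta replicate 1, and between 1.45 and 2.51 without any one of the other libraries. The gene was too low to be tested, and in the fit without a count filter it had an edgeR adjusted p of 0.233.

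Casp12 was higher in both treated libraries but did not pass the test. Its product belongs by sequence to the inflammatory caspases, and in mice it has been linked to stress of the endoplasmic reticulum. Its level was 80.2 and 84.2 CPM in the IFN-beta libraries and 59.3 and 37.1 CPM in the untreated libraries. The treated libraries were nearly equal and did not overlap with the untreated pair, which was widely spaced. The log2 fold change was 0.77 ± 0.20 SE (95% interval 0.33 to 1.22, edgeR adjusted p = 0.0559). The gene was called by DESeq2 (adjusted p = 0.00685), by limma-voom (0.0413), and by edgeR without a count filter (2.1e-05) or with a replicate block (0.00215). It was not called by edgeR when scaled by library totals (0.0904), by the upper quartile (0.0863) or by DESeq2 size factors (0.0617). Nor was it called with a stricter filter (0.0592) or without Rn45s, Lars2 and Mir6236 (0.0589). Casp12 was also called in each fit that left out a library, where a lone library is assumed to vary like the pair of the other group. Its size moved with the untreated libraries, with log2 values of 1.17 without untreated replicate 1 and 0.47 without untreated replicate 2.

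Gsdmd, which encodes the pore-forming substrate of the inflammatory caspases, rose after IFN-beta. Its level was 38.6 and 39.6 CPM in the IFN-beta libraries and 21.3 and 17.0 CPM in the untreated libraries. The treated pair was close together and stood above both untreated libraries. The log2 fold change was 1.03 ± 0.16 SE (95% interval 0.68 to 1.39, edgeR adjusted p = 0.00307), a ratio of mean CPM of 2.04. Gsdmd was called under each of 14 alternatives, with log2 values from 0.88 to 1.23.

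**Figure D1:**
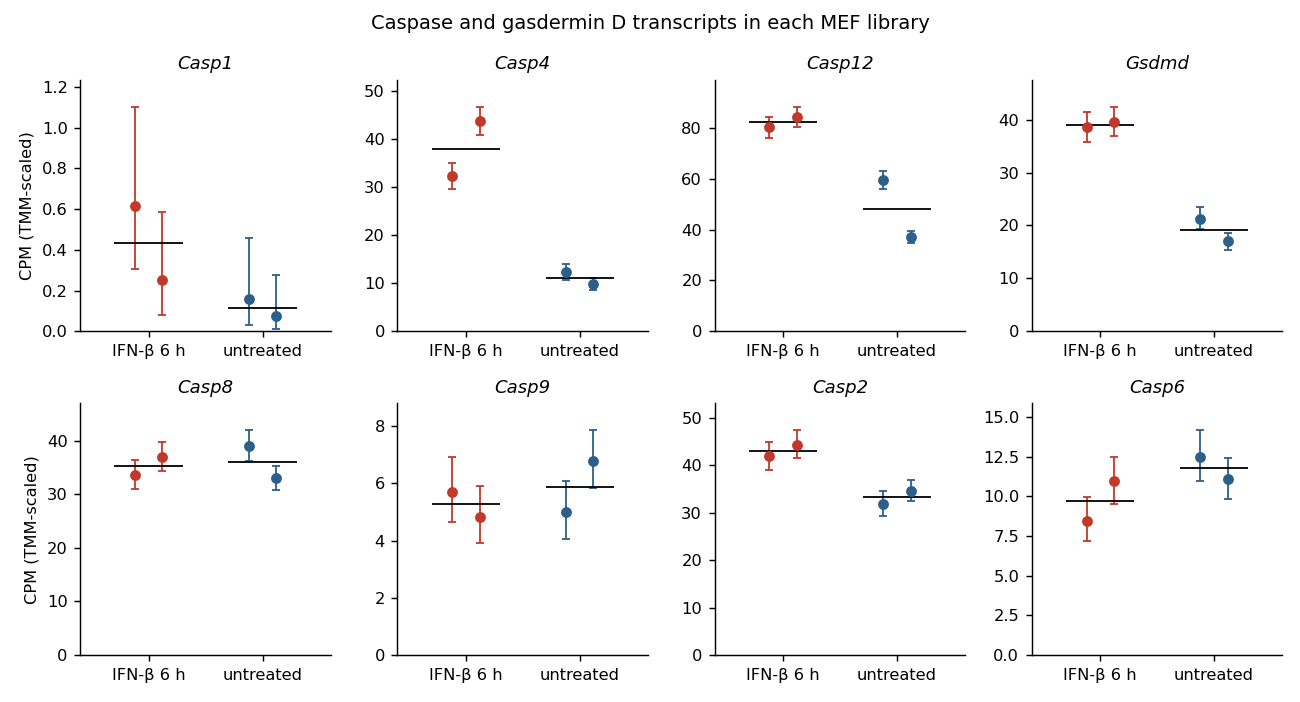
TMM-scaled counts per 1000000 (CPM, vertical axes, each from 0) of the 8 members in each library, with IFN-beta (6 h) left of untreated. Points are libraries with 95% exact Poisson intervals of their counts and black lines are group means. Casp4 and Gsdmd stand apart between groups, the untreated Casp12 libraries are widely spaced at 59.3 and 37.1 CPM, and Casp8 and Casp9 overlap.

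Of the 3 initiator caspases, 0 passed the test (against 4.73% higher and 0.495% lower over all tested genes). Casp8, the protease recruited to death receptors and a brake on necroptosis, was at 33.6 and 37.1 CPM in the IFN-beta libraries and 39.1 and 33.0 CPM in the untreated libraries. The groups overlapped, with a log2 fold change of -0.03 ± 0.15 SE (95% interval -0.36 to 0.30, edgeR adjusted p = 0.946). Casp9, the protease of the apoptosome, was low, at 5.72 and 4.84 CPM in the IFN-beta libraries and 4.99 and 6.79 CPM in the untreated libraries. Those groups overlapped too, and the log2 fold change of -0.17 ± 0.23 SE had the widest interval among these 3 genes (-0.69 to 0.35, edgeR adjusted p = 0.754). In the RefSeq annotation Casp9 overlaps the elastase gene Cela2a, which had 0 counts in each of the 4 libraries.

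Casp2, the caspase activated by the PIDDosome after nuclear and centrosome stress, was at 41.9 and 44.3 CPM in the IFN-beta libraries and 31.9 and 34.6 CPM in the untreated libraries. The groups did not overlap, but the step was small. The log2 fold change was 0.37 ± 0.14 SE (95% interval 0.07 to 0.68), with an unadjusted p of 0.0215 and an edgeR adjusted p of 0.183. It was called in 1 of 14 alternatives, without untreated replicate 2 (0.44, adjusted p = 0.0113).

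Casp6 encodes an executioner caspase that cuts nuclear lamin A. Its level was 8.46 and 10.9 CPM in the IFN-beta libraries and 12.47 and 11.1 CPM in the untreated libraries. The groups were barely separated, by the gap between 10.9 and 11.1 CPM. The log2 fold change was -0.28 ± 0.20 SE (95% interval -0.71 to 0.16, edgeR adjusted p = 0.497), and none of 14 alternatives called it. In the RefSeq annotation Casp6 overlaps the noncoding genes Gm46825 and Gm40150, which were not analysed here.

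**Figure D2:**
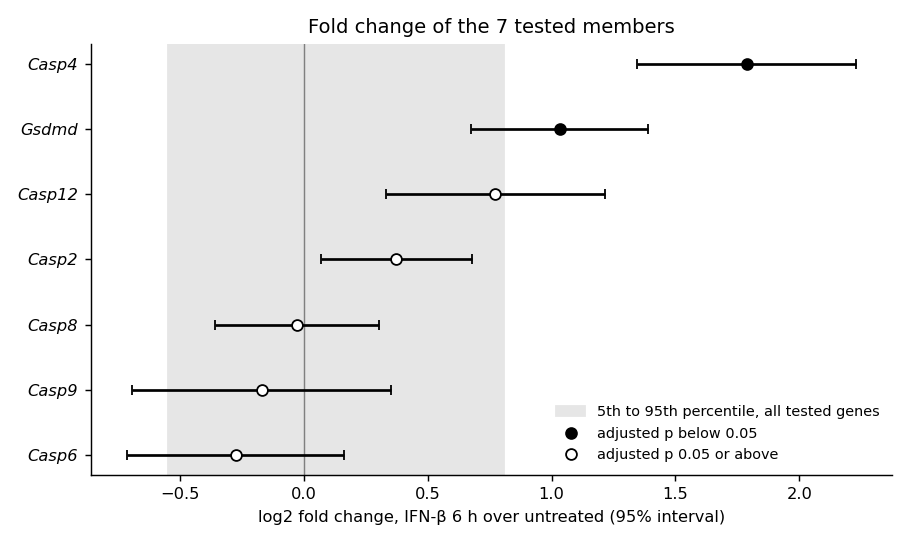
Log2 fold change of the 7 tested members, IFN-beta (6 h) over untreated, with 95% intervals from the edgeR fit; filled points passed the test. The grey band runs from -0.55 to 0.81, the 5th to the 95th percentile of all tested genes, and the points of Casp4 and Gsdmd lie beyond it.

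Set side by side, 2 of the 7 tested members were called higher (28.6%, against 4.73% of all tested genes) and 0 lower (against 0.495%). By unadjusted p, 4 of the 7 were under 0.05 and higher (Casp4, Gsdmd, Casp12 and Casp2), against 9.6% of all tested genes. The treated libraries lay above the untreated ones without overlap for 4 of 7 members (57.1%), against 23.9% of all tested genes, and below them for 1 of 7 (14.3%), against 26.8%. In the order of fold change among 12128 tested genes, Casp4 ranked 274, Gsdmd 479 and Casp12 630, counted from the highest. The fold changes of Casp8, Casp9 and Casp6 exceeded those of 48.8%, 30.8% and 20.2% of tested genes. With 7 genes chosen by name while earlier results of these data were known, these shares describe the members and were given no test.

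The makeup of the counts over the 8 members differed between groups, a measure that no scaling between libraries can change. Casp4 held 13.4% (Wilson 95% interval 12.4 to 14.4) and 16.5% (15.5 to 17.5) of these counts in the IFN-beta libraries, and 6.76% (5.97 to 7.64) and 6.57% (5.84 to 7.39) in the untreated libraries. Gsdmd held 15.99% and 14.9% in the IFN-beta libraries and 11.7% and 11.4% in the untreated libraries. Casp12 held 33.2% and 31.8% in the IFN-beta libraries and 32.7% and 24.8% in the untreated ones, and the groups overlapped. Casp8 held 13.9% and 14.0% in the IFN-beta libraries and 21.5% and 22.1% in the untreated ones, although its CPM overlapped between groups. The shares of a library add up to the whole, so a rise of some members lowers the shares of others. The count ratio of Casp4 to Casp12 was 0.402 and 0.519 in the IFN-beta libraries and 0.207 and 0.265 in the untreated ones, without overlap. The ratio of Casp4 to Casp8 was 0.960 and 1.18 in the IFN-beta libraries and 0.314 and 0.297 in the untreated ones. Counts were not divided by transcript length, so these values compare libraries and not the abundance of different genes.

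**Figure D3:**
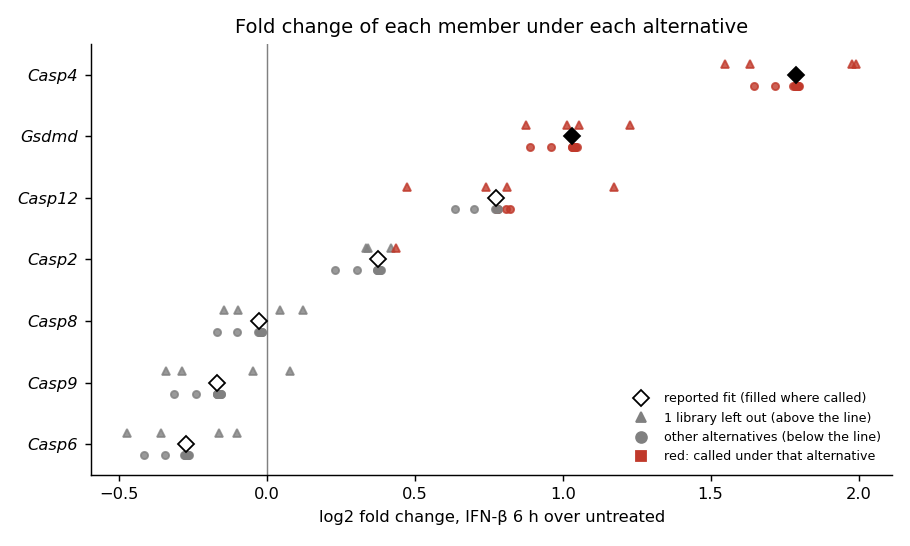
Log2 fold change of each tested member, IFN-beta (6 h) over untreated, in the reported fit (diamonds) and in 14 alternatives (triangles with 1 library left out, circles otherwise; red where called). Casp4 and Gsdmd are red throughout, Casp12 is red in 8 of 14 alternatives over a span from 0.47 to 1.17, and Casp8 and Casp9 straddle 0.

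The genes around the caspases were read from lists by role, chosen with earlier results of these data known. Each list is described by its counts beside a median log2 fold change of -0.02 over all tested genes. Of 15 inflammasome sensors and adaptors, 7 were tested, 2 rose and 0 fell (against 4.73% higher and 0.495% lower over all tested genes), with a median of 1.42. The 2 that rose, Zbp1 and Naip1, would not have passed the count filter on their untreated counts alone. The same holds for Naip2, whose value is the median, so the share and the median lean towards genes high after treatment. Zbp1, a sensor of Z-form nucleic acid that can trigger pyroptosis and necroptosis, had 396 and 526 counts in the IFN-beta libraries and 1 count in each untreated library, a pooled ratio of 558 (95% exact interval 154 to 4614, counting error only). Naip1, a receptor for bacterial secretion needles, had 22 and 25 counts in the IFN-beta libraries and 1 and 3 in the untreated libraries (log2 fold change 3.75 ± 0.55 SE, edgeR adjusted p = 0.00224). Nek7, a kinase that licenses the NLRP3 inflammasome, was at -0.24 and the sensor gene Nlrp1a at -0.20, and neither passed. Nlrp3, Nlrp6 and Mefv had 0 counts in each library. A further pair was singled out after the values were seen. The DNA sensor gene Aim2 had 34 and 63 counts in the IFN-beta libraries and 13 and 29 in the untreated ones (adjusted p = 0.0582), and the adaptor gene Pycard 10 and 16 against 14 and 23 (adjusted p = 0.818).

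Of 13 genes found for other gasdermins and the outputs of pyroptosis, 4 were tested and 1 rose (against 4.73% of all tested genes), with a median of -0.16. Il18, whose cytokine is matured by caspase-1, was at 6.13 ± 0.589 CPM after IFN-beta and 0.802 ± 0.115 CPM in untreated cells (SD, n = 2 each, log2 fold change 2.94 ± 0.28 SE, edgeR adjusted p = 8.5e-05). The alarmin gene Hmgb1 was at -0.24 and Ninj1, which encodes the protein that ruptures the plasma membrane of dying cells, at -0.48, and neither passed. Il1b had 0 counts in each library, and the related gasdermin gene Dfna5 was at 2.97 ± 0.0769 CPM after IFN-beta and 3.13 ± 0.0839 CPM in untreated cells.

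Of 12 tested genes for the platforms that activate initiator caspases, 0 were called, with a median of 0.05. Over all tested genes 4.73% were called higher and 0.495% lower, so 0 calls among 12 genes sets this list apart from neither share. The apoptosome trigger Cycs (cytochrome c) was at -0.14. Cflar, which encodes the caspase-8 regulator cFLIP, was at 151.7 ± 14.0 CPM after IFN-beta and 103.9 ± 16.7 CPM in untreated cells (SD, n = 2 each, log2 fold change 0.55 ± 0.15 SE, edgeR adjusted p = 0.0691). With all libraries kept, Cflar was called by DESeq2 (adjusted p = 0.0221) and by edgeR without a count filter (0.00439). It was not called by limma-voom (0.0672), nor by edgeR with a replicate block (0.0594) or scaled by library totals (0.133), among others. Of 10 tested caspase inhibitors and their antagonists, 2 rose (against 4.73% of all tested genes), with a median of 0.17. Xaf1, whose product binds the caspase inhibitor XIAP, was at 56.0 ± 1.23 CPM after IFN-beta and 2.47 ± 0.547 CPM in untreated cells (4.52 ± 0.19 SE, edgeR adjusted p = 1.4e-07). Serpinb9, an inhibitor of granzyme B, was at 72.3 ± 10.8 CPM after IFN-beta and 21.9 ± 4.97 CPM in untreated cells (1.73 ± 0.18 SE, edgeR adjusted p = 0.000194). Xiap itself (0.10) and the giant ubiquitin ligase gene Birc6 (0.24) did not pass.

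In the BCL-2 family, which controls the release of cytochrome c, 2 of 13 tested genes rose and 0 fell (against 4.73% and 0.495% of all tested genes), with a median of -0.10. The death-promoting BH3-only gene Bcl2l11 (BIM) was at 14.7 ± 0.918 CPM after IFN-beta and 7.30 ± 0.618 CPM in untreated cells (SD, n = 2 each, log2 fold change 1.01 ± 0.18 SE, edgeR adjusted p = 0.00779), and the pore-forming Bak1 at 75.0 ± 3.58 CPM after IFN-beta and 48.0 ± 2.34 CPM in untreated cells (0.64 ± 0.13 SE, adjusted p = 0.0158). The Bcl2l11 call was lost without IFN-beta replicate 1 (adjusted p = 0.0524), and the Bak1 call without IFN-beta replicate 1 (0.199) or IFN-beta replicate 2 (0.0606). The survival gene Mcl1 (-0.11) and the caspase-8 substrate gene Bid (0.31) did not pass. Of 12 tested genes for well-known caspase substrates, 0 were called (against 4.73% higher and 0.495% lower over all tested genes). Their median was 0.12, with Vim at 0.31 and Rtn4 at 0.04.

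**Figure D4:**
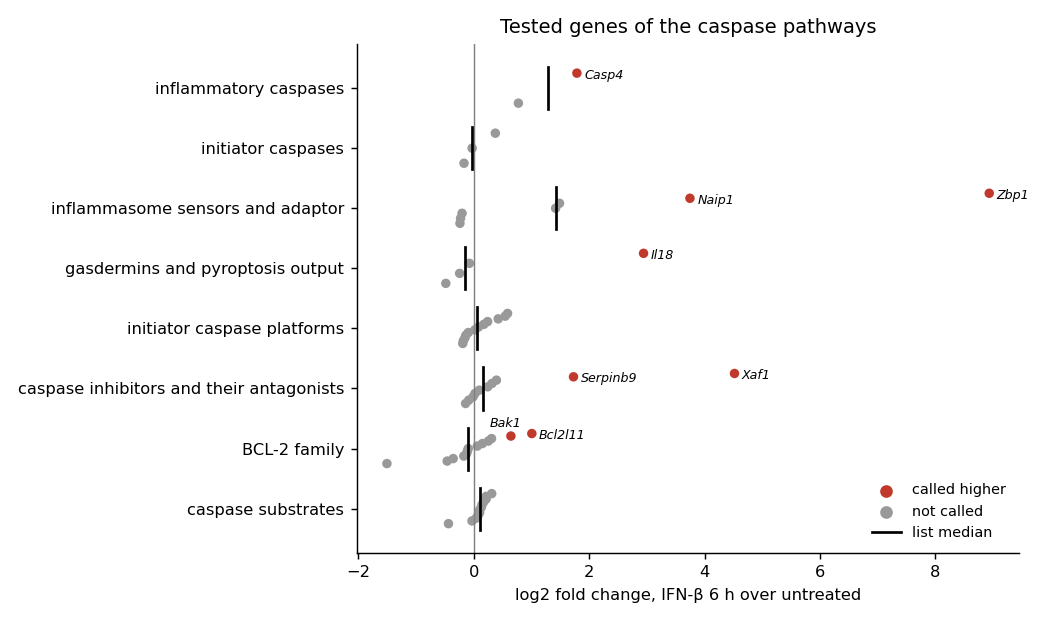
Log2 fold change of the tested genes of 8 caspase-related lists, IFN-beta (6 h) over untreated; each point is a gene, red where called higher, and black bars are list medians. Called genes are spread over 5 lists with 1 or 2 genes each, and the initiator caspases, their platforms and the caspase substrates hold none. Over all tested genes 4.73% were called higher and 0.495% lower.

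In sum, markers of the labelled cell type were high and those of other cell types low. The 10 fibroblast markers summed to 8825 and 9024 CPM in the IFN-beta libraries and 8658 and 8199 CPM in the untreated libraries. Of these 10, 0 were called (against 4.73% higher and 0.495% lower over all tested genes). Most of each sum came from Vim, S100a4 and Fn1, at means of 2870, 2673 and 1327 CPM after IFN-beta. Other markers were far lower, with Pdgfra at 34.9 CPM after IFN-beta and 53.8 CPM in untreated cells, and Dcn at 24.4 and 30.2 CPM. Macrophages are known to express Casp1, Casp4 and Gsdmd. The 9 macrophage markers found summed to 22.5 and 16.9 CPM in the IFN-beta libraries and 23.5 and 18.2 CPM in the untreated libraries, which overlapped. Of the 5 tested, 0 were called, beside the same shares over all tested genes. The levels of the 9 markers went different ways. The lysosomal gene Cd68 had 26 and 24 counts in the IFN-beta libraries and 16 and 18 in the untreated ones, without overlap (log2 fold change 0.82, edgeR adjusted p = 0.274). The antibody receptor gene Fcgr1 had 17 and 7 counts in the IFN-beta libraries and 0 in both untreated libraries, too few to be tested. The lysozyme gene Lyz2 had 68 and 27 counts in the IFN-beta libraries and 164 and 67 in the untreated ones (-1.08, edgeR adjusted p = 0.349). The pan-leukocyte gene Ptprc had 11 and 7 counts in the IFN-beta libraries and 11 and 12 in the untreated ones, and Aif1 had 1 count in IFN-beta replicate 1 and 0 in the others. The 4 endothelial markers summed to 3.14 and 2.02 CPM in the IFN-beta libraries and 0.936 and 1.06 CPM in the untreated libraries, and did not move together. Cdh5 was called higher, at 24 and 19 counts in the IFN-beta libraries and 2 and 6 in the untreated ones, and Kdr did not pass (log2 fold change 1.18, edgeR adjusted p = 0.177). On its untreated counts alone Cdh5 would not have passed the count filter. Of the untested others, Tek had 0 counts in both IFN-beta libraries and 5 and 2 in the untreated ones, and Pecam1 had 0 and 1 in the IFN-beta libraries and 1 and 2 in the untreated ones. The part of these cell types in the members' values was not tested. Epithelial and lymphocyte markers summed to at most 1.02 CPM in any library.

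The profiles most like those of the called members were sought over the 4 libraries among 11352 genes with a mean of at least 1 CPM, by Euclidean distance of mean-centred log2 CPM. Nearest to Casp4 were Serpinb9 (distance 0.144), Synpr (0.178) and the chemokine gene Ccl2 (0.204). Nearest to Gsdmd were Plag1 (0.0430), Zufsp (0.0548) and Acaa1a (0.0628). With 4 libraries in 2 groups, genes with a like step between groups lie near each other on this measure.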

How the data were processed

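The authors deposited, for each RNA-seq library, a table of raw read counts by gene symbol, neither normalized nor pooled. Per the labels' protocols, RNA was harvested with Trizol and libraries were built with a TruSeq RNA kit. TopHat2 2.0.13, HTSeq 0.7.2 and the mm9 build appear in the submitters' processing notes. Which annotation was counted, and whether strand was used, is not given in the sources used here, so reads of a gene and of one overlapping it antisense cannot be told apart. The 5 summary lines that name no gene (57.3% to 61.3% of records) were left out.

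Genes were tested with edgeR 4.0.16 (R 4.3.3) by quasi-likelihood F tests with TMM scaling, a single term for treatment and the default filter (minimum count 10, minimum total 15), adjusted by Benjamini-Hochberg over all tested genes. The standard error is the log2 fold change divided by the square root of F. Intervals of counts and shares cover counting error only. An exact permutation test of 2 against 2 libraries cannot go below p = 0.333 and was not used. Replicates differed by more than sampling noise (chi-square per gene 11.98 for the IFN-beta pair and 34.2 for the untreated pair). The procedure was tested on simulated data, in which every gene was given the same relative spread beyond counting error. The real replicates need not follow that setting, so the simulation does not measure how reliable the calls are here. The 8 members, the gene lists and the alternatives (other scalings and filters, DESeq2 1.42.0, limma-voom 3.58.1, a replicate block, another prior count, Rn45s, Lars2 and Mir6236 left out, or each library left out) were chosen with earlier results of these data known. Of each list, up to 6 called genes by p-value and up to 2 others by level are named, and for each called member the 3 nearest profiles; Nlrp3, Nlrp6, Mefv, Aim2, Pycard, Il1b, Dfna5 and the markers were named after their values were seen, and some list genes are not reported here. Promoter windows from RefSeq (GRCm38.p6) matched 7 of 8 members by symbol, all but Gsdmd.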

Additional observations from a re-analysis of the deposited data

How the results depend on the processing

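Casp4 and Gsdmd kept their calls under each of 14 alternatives, although the alternative with another prior count left every p-value as it was and could not change a call. The number of called members was 2 or 3 with all libraries kept, and 3 to 4 with a library left out, where a lone library is assumed to vary like the pair of the other group. Calls over all genes moved from 634 to 1244 without a count filter, and ranged from 494 to 3613 with a library left out. Some log2 values near 0 changed sign. With a library left out they ran from -0.14 to 0.12 for Casp8, from -0.34 to 0.078 for Casp9, from -0.51 to 0.18 for Nlrp1a, from -0.24 to 0.050 for Mcl1 and from -0.024 to 0.14 for Rtn4. Scaled by library totals, Xiap was at -0.048 and Rtn4 at -0.10, and with upper quartile scaling Rtn4 was at -0.030. The cause was not tested. The replicate numbers do not pair the libraries by any label, and deviations of same-numbered libraries had a correlation of -0.03 across genes. With a replicate block, 847 genes and 3 members were called, the added member being Casp12 (adjusted p = 0.00215). Among the members, counts were fewest for Casp1, with 21 in all, and next for Casp9, at 96 to 179 per library. How much of the Casp9 interval comes from depth and how much from spread between libraries was not tested.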

Other observations

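Around the other members, the RefSeq annotation places the muscle chloride channel gene Clcn1 next to Casp2. Clcn1 had 24 and 39 counts in the IFN-beta libraries and 6 and 7 counts in the untreated libraries, and it was called higher (log2 fold change 2.52, edgeR adjusted p = 0.00644). On its untreated counts alone Clcn1 would not have passed the count filter. Dnajc16, next to Casp9, had 169 and 168 counts in the IFN-beta libraries and 91 and 179 in the untreated ones (0.63, adjusted p = 0.173), and Pla2g12a, next to Casp6, was at 0.15 (adjusted p = 0.639). These genes were singled out after their values were seen.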
